A study of Caenorhabditis elegans with 2 samples.

Results

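The genes examined encode subunits of the pyruvate dehydrogenase and oxoglutarate dehydrogenase complexes: dld-1, dlat-1, dlst-1, pdha-1, pdhb-1 and ogdh-1. They are 6 of the 19973 protein-coding genes on the nuclear chromosomes, and all 6 names were found in the WBcel235 annotation. They were listed by name, and the set was chosen by the signal value of the dld-1 promoter peak, which is among the strongest in the data. The values below therefore describe the members, and no test was made on them. The measurement is chromatin immunoprecipitation with sequencing of T20F7.1, which the series treats as a transcription factor, from whole larvae of Caenorhabditis elegans strain OP754. This strain carries the transgene wgIs754, in which T20F7.1 is fused to TY1, EGFP and 3xFLAG beside a rescuing copy of unc-119, in the unc-119 (tm4063) background. The single group, immunoprecipitated with an anti-GFP antibody, holds 2 biological replicates of L4 larvae of mixed sex at 48 hours, grown from starved L1 larvae, and no control library was analysed here. Whole animals were pooled, so no signal can be given to a tissue, and a larger share of bound cells cannot be told apart from more binding per cell.

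Both complexes are mitochondrial and work in the same way. An E1 subunit removes carbon dioxide from a 2-oxoacid with the help of thiamine diphosphate, an E2 subunit carries the remaining acyl group on a lipoyl arm to coenzyme A, and an E3 subunit, dihydrolipoyl dehydrogenase, re-oxidises that arm. The pyruvate dehydrogenase complex makes acetyl-CoA for the tricarboxylic acid (TCA) cycle, the oxoglutarate dehydrogenase complex makes succinyl-CoA within it, and E3 is shared between them and also serves the branched-chain 2-oxoacid complex and glycine cleavage.

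For each gene, regions were taken whose summit lay between 1000 bp upstream of the gene start and the gene end. The lists are the 30000 candidate regions of each replicate, the 30000 candidates of the pooled replicates and the 2586 pooled regions that the authors kept by the irreproducible discovery rate (IDR) procedure, which sets the ranks of the replicates side by side. All 2586 are the strongest candidates of the pooled list. Signal values are scores from the authors' peak caller, and their scale is not given in the sources used here. The pooled values stand above those of single replicates at the 5 members that had regions. Coordinates are those of ce11.

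The promoters of dld-1, dlat-1 and dlst-1 held IDR peaks. Part of the DNA under these peaks is printed 5′ to 3′ along the strand of each gene (RefSeq genome sequence, WBcel235), because the results turn on these sites. The dld-1 stretch is chrIV:14464113-14464412 on the plus strand, with the summit at base 151. The dlat-1 stretch is chrV:14447481-14447650 on the minus strand and begins at the base next to the start of the divergent gene fntb-1, with the summit at base 20. The dlst-1 stretch is chrV:6709232-6709531 on the minus strand and covers both of its summits. Capitals in the dld-1 and dlat-1 sequences mark the longest word the windows around these summits share, and capitals in the dlst-1 sequence mark ACGCGC on either strand. The windows searched for words reach in part beyond the printed bases.
dld-1: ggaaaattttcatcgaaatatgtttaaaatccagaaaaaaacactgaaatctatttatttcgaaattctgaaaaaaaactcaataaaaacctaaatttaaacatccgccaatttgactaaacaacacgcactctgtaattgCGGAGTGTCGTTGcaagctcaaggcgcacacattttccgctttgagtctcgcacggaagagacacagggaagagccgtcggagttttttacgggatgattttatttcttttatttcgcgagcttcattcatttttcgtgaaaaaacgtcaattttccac
dlat-1: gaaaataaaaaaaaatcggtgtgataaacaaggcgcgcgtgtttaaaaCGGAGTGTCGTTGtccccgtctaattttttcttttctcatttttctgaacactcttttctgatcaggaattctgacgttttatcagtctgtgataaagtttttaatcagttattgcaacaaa
dlst-1: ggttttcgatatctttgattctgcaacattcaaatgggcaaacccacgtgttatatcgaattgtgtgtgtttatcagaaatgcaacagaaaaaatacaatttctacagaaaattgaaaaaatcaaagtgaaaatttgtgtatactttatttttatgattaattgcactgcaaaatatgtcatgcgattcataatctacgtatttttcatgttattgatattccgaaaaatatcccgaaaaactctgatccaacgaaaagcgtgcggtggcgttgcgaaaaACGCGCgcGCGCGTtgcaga

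Of the 6 members, 3 (dld-1, dlat-1 and dlst-1) had an IDR summit in the gene window, against 11.4% of all protein-coding genes. The set was chosen by the dld-1 peak, so the place of dld-1 in this and the following counts was fixed in advance. Among the 8777 genes with windows between 2900 and 8033 bp, the range of the members, the share was 12.6%. The same 3 members had an IDR summit in the narrower promoter window from 500 bp upstream to 100 bp downstream of the start, against 7.31% of all genes. Pooled candidates of any strength lay in the windows of 5 members, all but pdhb-1, against 49.9% of all genes. This last share was not matched for window length, and the median window over all genes was 3027 bp. By role, the shared E3 gene and both E2 genes had IDR peaks and none of the 3 E1 genes did. This division was noticed after the values were seen, covers 6 genes, rests in part on dld-1 and was not tested.

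The E3 gene dld-1 (WBGene00010794, chrIV:14464517-14469136, plus strand) had the highest values of the set. Its promoter region had a signal value of 1766 in replicate 1 and 1650 in replicate 2, with rank 5 of 30000 in both, and 3399 with rank 5 in the IDR list. The replicate mean was 1708 ± 81.9 (SD, n = 2). Its summit lay 254 bp upstream of the gene start in replicate 1 and in the pooled list, and 261 bp upstream in replicate 2. The replicates thus placed the dld-1 summit within 7 bp of each other. The IDR peak spans chrIV:14463982-14464498, a width of 517 bp against a median of 440 bp over all IDR peaks. Only 9 protein-coding genes (0.0451%) had a peak at least as strong as that of dld-1 in their window, dld-1 included, and some of these genes share a peak. The summit lies between nspg-9 and dld-1, which are both on the plus strand, and inside LLC1.120, an annotated non-coding RNA gene of 83 bp on the minus strand. No other protein-coding gene starts within 1000 bp of it. Within the dld-1 gene there were 4 pooled candidates, all in introns, with signal values from 38.9 to 67.0 and ranks from 6134 to 23433, so its binding signal was high at the promoter alone. The IDR peaks next to it in rank were those nearest to luc-7L3, with 3618, and F52C12.2, with 3214.

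dlat-1 (WBGene00009082, chrV:14445323-14447290, minus strand) encodes the E2 subunit of the pyruvate dehydrogenase complex, dihydrolipoyl acetyltransferase. Its upstream region had a signal value of 474 in replicate 1, with rank 131, and 516 in replicate 2, with rank 110. The IDR value was 991, with rank 121, and the replicate mean was 495 ± 29.2 (SD, n = 2). Summits lay 320 bp upstream of the dlat-1 start in replicate 1, 312 bp in replicate 2 and 341 bp in the pooled list. The region is shared with a second gene: the pooled summit, at 14447631, is 20 bp upstream of fntb-1, a gene on the opposite strand. The peak cannot be given to dlat-1 alone, and it goes to fntb-1 when each summit is given to the nearest start. Besides this peak, the dlat-1 window held 1 weak pooled candidate in the 3′ UTR, with a signal value of 38.7 and rank 23626. The IDR peaks next in rank had values of 994, nearest to F13G3.7, and 989, nearest to sel-1.

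dlst-1 (WBGene00020950, chrV:6707056-6709101, minus strand) encodes the E2 subunit of the oxoglutarate dehydrogenase complex, dihydrolipoyl succinyltransferase. It was the only member with more than 1 IDR peak. The stronger had a summit 181 bp upstream of the start, a signal value of 346, rank 386 and a −log10 q-value of 3.01 in the authors' deposited list, which is the highest value there and is shared by 510 of the 2586 peaks, those of dld-1 and dlat-1 among them. The weaker had its summit 381 bp upstream, a signal value of 189, rank 848 and a −log10 q-value of 2.75 in the authors' deposited list. Replicate 2 also held a pair of regions, with summits 168 and 370 bp upstream and signal values of 180 and 90.2. Replicate 1 held a single region, with its summit 281 bp upstream, between the positions of the pair, and a signal value of 176. The replicates therefore had similar highest signal values and differed in how they divided the dlst-1 signal. The strongest regions had rank 396 in replicate 1 and 388 in replicate 2, with a mean of 178 ± 2.82 (SD, n = 2). The stronger pooled summit lies 7 bp from W02F12.11, a non-coding RNA gene of 153 bp on the plus strand. The gene upstream of dlst-1, sna-1, has the same orientation, and an IDR peak of 733 with rank 197 lay 1546 bp upstream of dlst-1, just outside the window, near the sna-1 start. In rank, hrpl-1 (347) and C17H12.2 (345) were nearest to the stronger dlst-1 peak, and lmtr-3 and C29F3.7 (189 each) to the weaker.

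**Figure D1:**
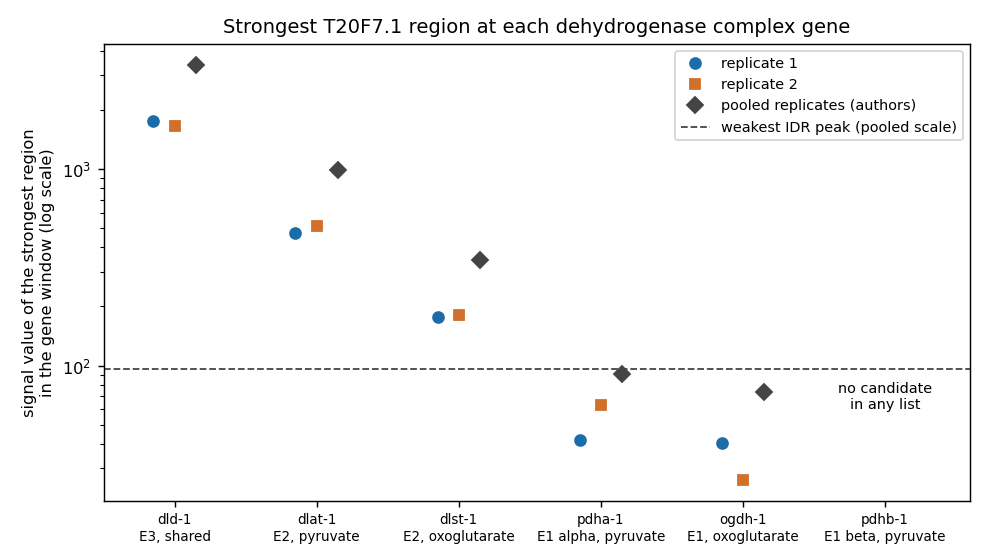
Signal value (log scale) of the strongest region in the window of each gene, as points for replicate 1, replicate 2 and the authors' pooled list, with a dashed line at the weakest IDR peak, 95.6 on the pooled scale. dld-1, dlat-1 and dlst-1 lie above the line, pdha-1 (90.4) and ogdh-1 (73.3) below it, and pdhb-1 has no region; the strongest region of pdha-1 is a different one in replicate 1 than in the other lists.

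The E1 genes had weak regions or none. pdha-1 (WBGene00011510, chrII:8066285-8068184, plus strand), the E1 alpha subunit of the pyruvate dehydrogenase complex, came closest to the limit of the IDR list. Its strongest pooled candidate had a signal value of 90.4 and rank 2873, where the weakest IDR peak had 95.6 and rank 2586. This candidate lay in the 3′ UTR, 1746 bp downstream of the start, and inside gpcp-2, a gene on the opposite strand. The replicates differed there: the signal value was 30.7 with rank 9246 in replicate 1 and 62.7 with rank 1839 in replicate 2, where it was among the 2586 strongest. The other candidate lay at the pdha-1 start, with its pooled summit 4 bp downstream, inside the 5′ UTR. Its signal values were 41.7 in replicate 1, 37.1 in replicate 2 and 84.8 in the pooled list, where it had rank 3306. Both regions of pdha-1 were thus weak, and each replicate had a different one as its stronger.

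ogdh-1 (WBGene00020679, chrIV:4696979-4704011, minus strand), the E1 subunit of the oxoglutarate dehydrogenase complex, is the longest member at 7033 bp. Its 4 pooled candidates had signal values from 33.3 to 73.3 and ranks from 4816 to 29514. The strongest lay in an intron 4973 bp downstream of the start, with 40.1 in replicate 1 and 26.2 in replicate 2. The candidates upstream of ogdh-1, 368 and 718 bp from the start, had pooled values of 36.2 and 33.3, close to the lowest in the list, 32.9. The nearest IDR summit was 21555 bp upstream of the ogdh-1 start, where that of pdha-1 was 3828 bp and that of pdhb-1 14213 bp upstream.

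pdhb-1 (WBGene00015413, chrIV:3399672-3403908, plus strand), the E1 beta subunit of the pyruvate dehydrogenase complex, had no candidate region in any list. The nearest candidate was 12432 bp upstream of its start in both replicates and in the pooled list. The pdhb-1 gene lies in a stretch of 41975 bp with no pooled candidate, which also holds the starts of other protein-coding genes, 9 in all with pdhb-1. Stretches at least as long made up 290 (0.967%) of the gaps between neighbouring pooled candidates, whose median was 1382 bp. The absence of candidate regions was therefore not limited to pdhb-1, and its cause was not tested.

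**Figure D2:**
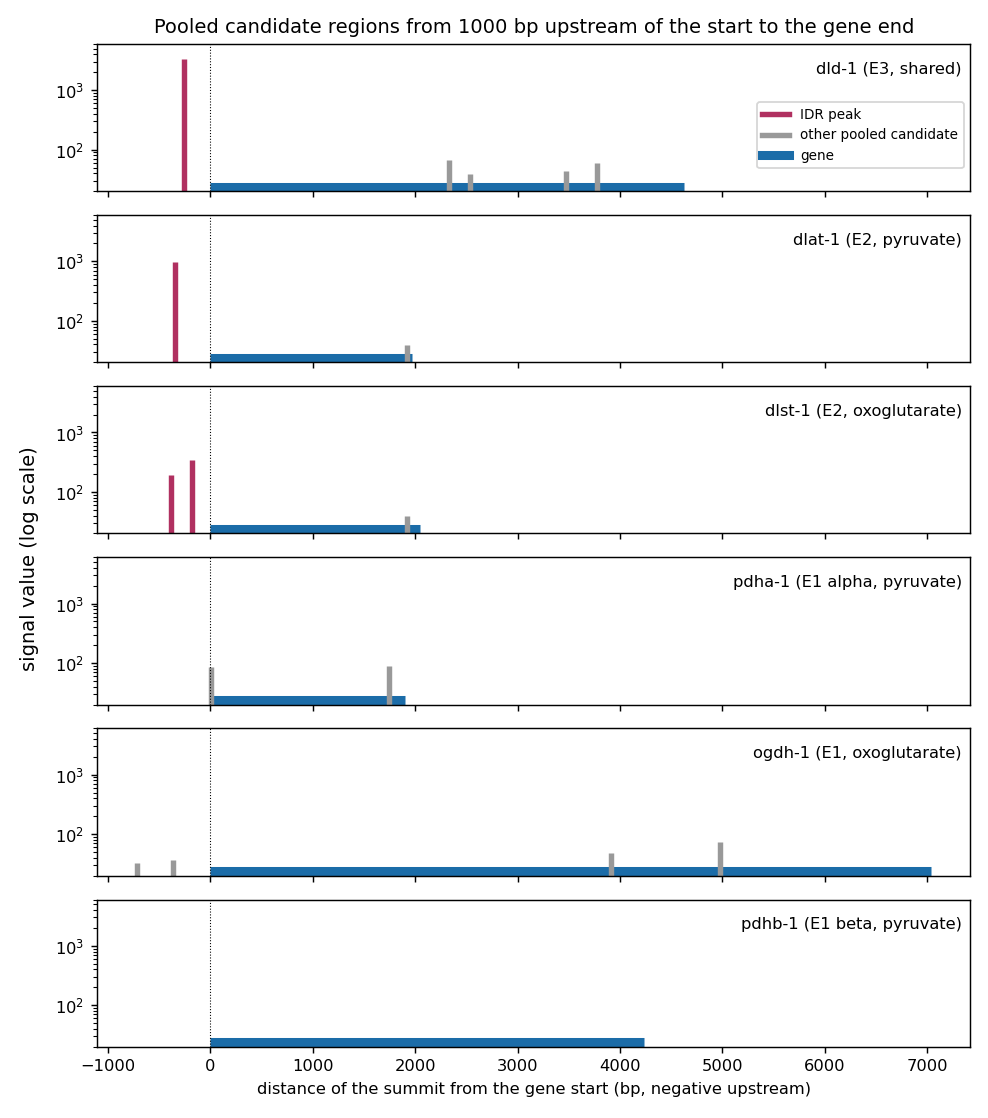
Pooled candidate regions at the 6 genes, drawn at the distance of the summit from the gene start (bp) with the signal value on a log scale; red bars are IDR peaks, grey bars other candidates and the blue band the gene. The IDR peaks of dld-1, dlat-1 and dlst-1 lie between 181 and 381 bp upstream of the start, and candidates inside the 6 genes stay at 90.4 or below.

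Replicate values at the bound members were close to each other. On the log2 scale, replicate 2 over replicate 1 was -0.10 at dld-1, 0.12 at dlat-1 and 0.03 at dlst-1. Over the 2442 IDR peaks with a region within 100 bp in both replicates it had a median of 0.03 and an SD of 0.47, and over those among the strongest 500 peaks the SD was 0.20. All 3 member ratios were within both spreads. Strong peaks in general had small ratios, so these values do not set the members apart. For dlst-1 the replicate 1 summit lay 100 bp from the pooled one. Its ratio sets the single region of replicate 1 beside the stronger of a pair in replicate 2, so it does not show equal signal at the same site. The order of dld-1, dlat-1 and dlst-1 was the same in each replicate, and neighbours in it differed by much more than the replicates did.

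**Figure D3:**
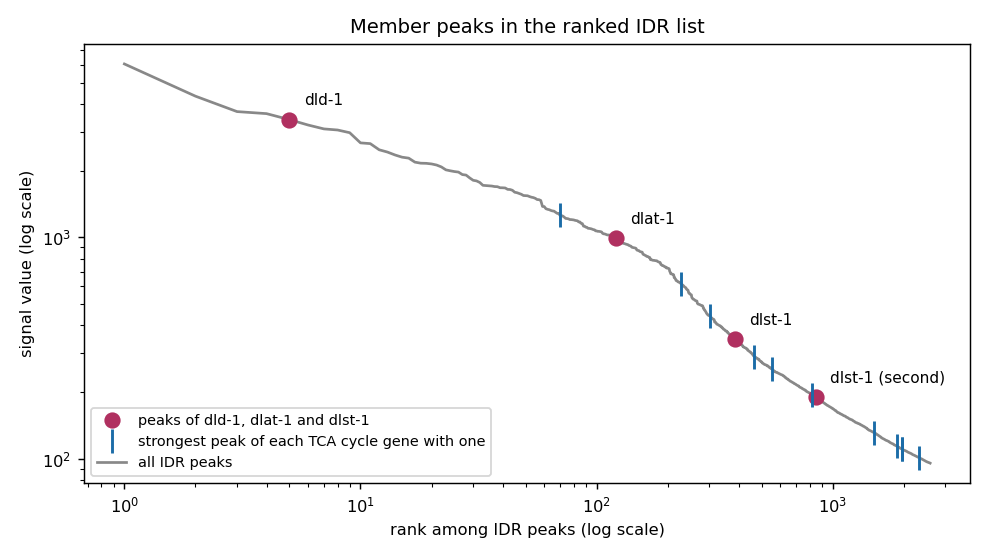
Signal value against rank for the 2586 IDR peaks, both on log scales, with the peaks of dld-1, dlat-1 and dlst-1 as circles and the strongest peak of each TCA cycle gene with one as ticks. dld-1 stands at rank 5, dlat-1 at 121 and dlst-1 at 386 and 848, while the 11 TCA cycle genes run from rank 70 (sdhd-1) to 2330 (fum-1).

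The sequences under the peaks of dld-1 and dlat-1 share the word CGGAGTGTCGTTG, the longest common to the 300 bp around their pooled summits on either strand. In dld-1 the word lies 263 to 251 bp upstream of the start, so that it holds the summits of both replicates. In dlat-1 it lies 312 to 300 bp upstream, and the replicate 2 summit falls on its first base. It reads in the direction of the gene in both. The word was chosen after the sequences were seen, and its counts include these sites. Windows of 300 bp around summits held it at 35 of the 258 strongest IDR peaks (13.6%) and at 9 of the other 2328 (0.387%). The 300 bp upstream of gene starts held it at 62 of 19973 genes (0.310%). Of its 208 occurrences in the genome, 47 (22.6%) lay within 150 bp of an IDR summit. The share of the whole genome that lies so near a summit was not computed. The windows of dlst-1, pdha-1, pdhb-1 and ogdh-1 held no copy. A match is a description of the letters and does not show a binding site.

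Shorter words were searched on both strands within 50 bp of the summits, using the 10 6-mers that an earlier analysis of these same peaks found most enriched at summits. With the share of all IDR summits that held each, these were ACGCGC (8.97%), ACGCAG (9.78%), GACGCA (9.16%), ACACTC (11.5%), CGTCTC (10.4%), AGAGAC (12.0%), ACACGC (7.35%), AGCGCG (6.54%), CACACA (11.6%) and ACACAC (10.4%). Some overlap by all but 1 base, such as the last pair. They were chosen on these peaks, so their presence at a member supports nothing further. The dld-1 summit held 3 of them. The nearest was ACACTC, which began 7 bp upstream of the summit, with ACACGC upstream of it and CACACA downstream. The dlat-1 summit held 3 as well, with ACACTC and ACACGC again and ACGCGC as the third. At least 3 of the words were held by 12.6% of all IDR summits. At least 1 was held by 47.7%, against 20.4% of windows of the same length centred 250 bp upstream of gene starts. The share with at least 3 was not computed for the 258 strongest peaks alone, where the words found at dlat-1 were more frequent. There ACACGC was found at 23.3%. The ACACTC at both genes is part of the longer shared word, read on the other strand. ACACTC was found at 40.3% of the 258 strongest IDR summits, at 11.5% of all and in 3.42% of the promoter windows. The stronger dlst-1 summit held ACGCGC alone, in 2 copies of opposite orientation 150 to 145 and 142 to 137 bp upstream of the start. ACGCGC was found at 26.4% of these 258, at 8.97% of all IDR summits and in 2.16% of the promoter windows. In the dlat-1 sequence ACGCGC overlaps with ACACGC, both on the reverse strand. The weaker dlst-1 summit held 2 of the words. The pdha-1 candidates held none, and of the 4 ogdh-1 candidates 1, upstream of the gene at 368 bp, held a word.

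Genes that work with the complexes were compared with all genes as 4 lists written by name without a pathway database. The names sdhc-1 (TCA cycle), mpc-3 (pyruvate supply), bckdk-1 and dhtk-1 (other 2-oxoacid dehydrogenases) and lipt-2 (lipoate) were not found in the annotation and are not in the denominators. The TCA cycle list was not limited to the mitochondrial cycle, since it also held aco-1, idh-1, mdh-1 and icl-1. In it, 11 of 22 genes (50%) had an IDR peak in the gene window, against 11.4% of all genes. The same number, idh-1 and icl-1 among them, had one in the promoter window, against 7.31%. The strongest were subunit genes of succinate dehydrogenase, sdhd-1 (IDR signal value 1255; 653 in replicate 1 and 618 in replicate 2) and sdhb-1 (618; 313 and 300 in replicates 1 and 2). The peak of sdhd-1 is shared with ilkp-1 and that of sdhb-1 with cup-15. The mitochondrial aconitase gene aco-2 had 442, in a window shared with eef-1B.1. The genes of succinyl-CoA synthetase, the enzyme that takes up the product of the oxoglutarate dehydrogenase complex, had 289 at sucg-1 and 255 at sucl-1, while suca-1 and sucl-2 had no IDR peak. sdha-1, the flavoprotein subunit of succinate dehydrogenase, had 194, while its paralog sdha-2 and the cytochrome b subunit gene mev-1 had no candidate in any list. The other TCA cycle genes with a peak had values of 131 or below, and the citrate synthase gene cts-1 had no candidate in any list. Among these weaker peaks, that of mdh-2 also lay in the promoter window of F20H11.4, and that of icl-1 in that of srh-2. The median over the 11 genes was 194, against 168 over the 2271 protein-coding genes with an IDR peak in the window.

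In the pyruvate supply list 8 of 13 genes (61.5%) had an IDR peak in the gene window, against 11.4% of all genes. In the promoter window it was 4 (30.8%), against 7.31% of all genes. The median value was 122, below that of all genes with a peak. The strongest was pdhk-2, which encodes the kinase that phosphorylates and inactivates the E1 subunit of the pyruvate dehydrogenase complex. Its promoter peak, 227 bp upstream of the start, had 491 with rank 280, and 265 in replicate 1 and 226 in replicate 2. The phosphatase gene pdp-1 had no candidate in any list. Pyruvate carboxylase, pyc-1, had 182, at 292 bp upstream, and the aldehyde dehydrogenase gene alh-1 had 162, inside the gene. The remaining peaks were weak. mpc-2, a subunit gene of the mitochondrial pyruvate carrier, had 122, and mpc-1 had 114. The pyruvate kinase genes pyk-2 and pyk-1 had 122 and 115, and the lactate dehydrogenase gene ldh-1 had 116.

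Among other 2-oxoacid dehydrogenase and glycine cleavage genes, whose complexes also use the E3 subunit, 2 of 9 (22.2%) had an IDR peak in the gene window, against 11.4% of all genes. In the promoter window it was 1 of 9 (11.1%), against 7.31% of all genes. dbt-1, the E2 gene of the branched-chain complex, had a pair, with 157 for the stronger, which lay inside the gene 657 bp from the start. bckd-1B, an E1 beta gene, had 98.4, near the bottom of the IDR list. Of the other dehydrogenase genes, dlat-2 and bckd-1A had no candidate in any list, and ogdh-2 had candidates but no IDR peak. The division by role seen among the members thus did not hold throughout, since bckd-1B is an E1 gene with a peak. In the lipoate and thiamine list 1 of 5 genes (20%) had a peak, against 11.4% of all genes in the gene window and 7.31% in the promoter window. It was lias-1, which encodes lipoate synthase, the enzyme that builds the cofactor of the E2 arm. Its peak lay 295 bp upstream of the start, with an IDR signal value of 231, 108 in replicate 1 and 125 in replicate 2. With so few genes, 1 gene more or less moves these shares widely. No peak of these 4 lists reached the value of dld-1, but the set was chosen for that high value, so this contrast carries no weight. sdhd-1 was the only gene of the lists above dlat-1.

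**Figure D4:**
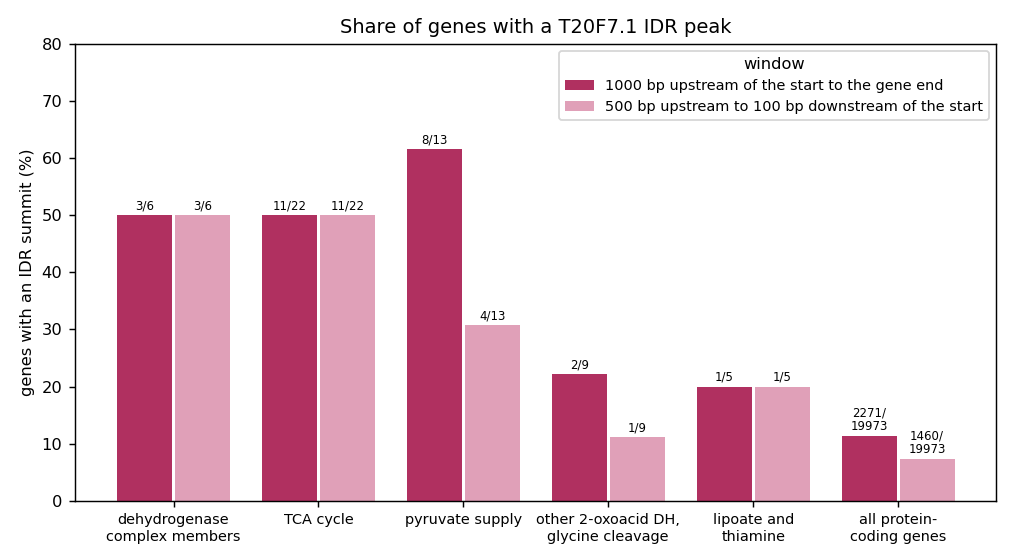
Percent of genes with an IDR summit in the gene window (dark) and in the promoter window (light) for the 6 dehydrogenase complex genes, the 4 lists and all protein-coding genes, with counts above the bars. The members stand at 3 of 6 in both windows and the TCA cycle at 11 of 22, against 11.4% and 7.31% of all genes. The 3 members include dld-1, whose peak was used to choose the set.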

How the data were processed

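Chromatin immunoprecipitation lists of 2 replicates of 1 group were used. The authors deposited 4 lists of regions on ce11, per the labels: 1 per replicate, 1 for the pooled replicates and the IDR peaks. The signal value in the deposited lists is a score from the authors' peak caller, and the deposited −log10 q-value is also theirs; the summit offset in bp, also deposited, was added to the region start. No aligner or caller is given in the sources used here, and the depth is unknown. The text beside the lists mentions a control alignment, which was not analysed here.

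Genes came from Ensembl release 115 (WBcel235, the ce11 sequence). All regions lay within its chromosomes, and 99.9% of annotated start codons read ATG. Start and end were found to be the same in the RefSeq annotation for 3 of the 6 members. Distances from a gene start thus hold for the Ensembl annotation. Ranks are by signal value within each list. Members, lists and words were chosen with earlier results of these data known, and no test was run. Genes were named by rule: the members, up to 6 genes with the strongest peaks per list, the starts next to member summits, and the peaks next in rank. Other values and genes named (genes without peaks, some further list genes, gene pairs, the shared word) were chosen after they were seen. Replicate regions were matched within 100 bp. The counting and word search were tested on simulated data. Python 3.11.15, numpy 2.4.6, pandas 2.3.3 and matplotlib 3.10.9 were used.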

Additional observations from a re-analysis of the deposited data

How the results depend on the processing

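The 3 members with an IDR peak were the same with 500 or 2000 bp of upstream reach, in the promoter window, with a −log10 q-value of at least 2, in the stronger 50% of peaks, by interval overlap and without replicate 2. Without replicate 1, with the 2586 strongest candidates of replicate 2 in place of the IDR list, pdha-1 joined them, so leaving out a replicate gave 3 to 4 members. With the nearest start alone dlat-1 was lost and 2 remained. The TCA cycle count of 11 was 6 with a −log10 q-value of at least 2 and 6 in the stronger 50% of peaks, and 10 to 12 with a replicate left out. It was 8 with the nearest start alone and 13 by interval overlap. The pyruvate supply count of 8 was 4 in the promoter window, 3 with the q-value limit and 3 in the stronger 50%, and 6 to 8 with a replicate left out. The count of 2 for other 2-oxoacid dehydrogenase and glycine cleavage genes was 1 with 500 bp upstream, 1 in the promoter window, 1 with the q-value limit, 1 in the stronger 50%, and 1 to 2 with a replicate left out. That of lipoate and thiamine genes was 1 throughout. Under these settings the share of all protein-coding genes was 9.94% with 500 bp upstream and 13.6% with 2000 bp. It was 7.31% in the promoter window, 13% by interval overlap and 8.33% with the nearest start alone. With the q-value limit it was 6.31%, in the stronger 50% 6.76%, and with a replicate left out 11.3% to 11.6%. In the gene window with all IDR peaks it was 11.4%.

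Single replicates gave 1650 to 1766 for dld-1, 474 to 516 for dlat-1 and 176 to 180 for dlst-1, on a scale below that of the pooled values. With 2000 bp upstream the strongest peak of dlst-1 had 733, the one near sna-1. Replicate ratios moved by less than their SD over all peaks, though that of dlst-1 was -0.02 after dividing each replicate by its median, and no ratio was had for dlst-1 with matching within 50 bp. Within 25 bp the dlst-1 summit held 0 of the 10 words. No paired analysis was possible because there is 1 group. Read depth is unknown, so weak regions such as those of pdha-1 and ogdh-1 cannot be told from background by counts.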
